A study of Drosophila melanogaster with 55 samples.

Results

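Rover, DM297 and Quasimodo2 are LTR retrotransposons of the Gypsy family, and 5 rows of the repeat counts carry them here. These are ROVER-I_DM and QUASIMODO2-I_DM, the internal parts of Rover and Quasimodo2, ROVER-LTR_DM and QUASIMODO2-LTR_DM, their terminal repeats, and DM297_I-int, the internal part of DM297. The 5 rows were taken by exact name from 9263 repeat names, of which 9028 are simple repeats and 208 are transposable elements. By name, 97 of the transposable elements are relatives of the Gypsy family. The 5 rows were selected on their RNA levels and fold changes across the groups described here. The choice also compared internal with terminal rows, all on the scaled counts of these libraries. Their levels, fold changes, calls and ratios of internal to terminal reads are therefore descriptions of these libraries. No test of a single row is given as support.

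An LTR retrotransposon is flanked by a pair of long terminal repeats (LTRs). Transcription starts in the upstream LTR and ends in the downstream one, so a full-length transcript consists mostly of the internal part, which encodes the structural protein and the enzymes for reverse transcription and integration. Many Gypsy elements of Drosophila, DM297 among them, also carry an envelope gene as a retrovirus does. In the germline they are silenced through small RNAs of the piRNA pathway, in part by methylation of histone H3 on lysine 9. SetDB1, named Eggless in flies, is a methyltransferase for that residue, and Gcn5 is a histone acetyltransferase.

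RNA was sequenced from single Drosophila melanogaster embryos of stage 5, the cellular blastoderm, around the time at which the embryo's own genome is switched on, with 3 libraries in each of 4 groups. F578A embryos have the genotype SetDB1 F578A/CyO, where F578A is a phenylalanine-to-alanine substitution in SetDB1 and CyO a balancer of the second chromosome. Their WT controls have the genotype SetDB1 WT without a balancer, so the substitution and the balancer cannot be told apart. Gcn5 knockdown embryos carry GFP-SetDB1, nos-Gal4 and a Gcn5 RNAi construct. The w knockdown controls carry GFP-SetDB1, nos-Gal4 and RNAi against w (white), an eye colour gene. The nos promoter drives Gal4 in the germline, and the labels do not say whether a genotype is that of the embryo or of its parents. The labels number the libraries 1 to 3 but name no separate crosses, so the spread between them may be partly technical.

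The libraries held 1.92 to 3.21 M counts on repeats. Transposable elements took 3.97% to 5.92% of the counts in F578A embryos, 3.31% to 4.66% in WT, 2.6% to 2.75% in the Gcn5 knockdown and 2.6% to 3.17% in the w knockdown. The tables count repeats and no genes, so the level of Gcn5, w or SetDB1 was not checked here. Simple repeats took from 77.6% of the counts (w knockdown replicate 2) to 85.8% (WT replicate 2). Ribosomal RNA took from 0.814% (F578A replicate 1) to 9.17% (w knockdown replicate 2). Levels below are scaled counts (CPM, the counts of a row relative to the library size, with TMM scaling over the 12 libraries). The library size is the sum of these repeat counts, not of all RNA reads. CPM and the transposable-element share are therefore relative to a total made mostly of simple repeats.

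The internal part of Rover was the row that set F578A embryos apart. ROVER-I_DM had 1119, 1328 and 1397 CPM in the F578A libraries, against 150.0, 146 and 168 CPM in the WT libraries. All 3 F578A libraries lay above all 3 WT libraries, and the libraries within each group lay close together, with an SD on the log2 scale of 0.168 in F578A and 0.104 in WT. The means were 1281 ± 145 CPM in F578A and 155 ± 11.4 CPM in WT (SD, n = 3 each), a log2 fold change of 3.05 (SE 0.138) or 8.29-fold. Behind these levels stood 3494 to 4387 counts per library in F578A and 367 to 448 in WT. In RNA of whole embryos, more cells with Rover RNA and more RNA per cell cannot be told apart.

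Rover also took a larger place among the transposable elements. ROVER-I_DM made up 2.06%, 2.73% and 3.53% of all transposable-element counts in F578A, against 0.325%, 0.422% and 0.412% in WT. By count it was number 10, 8 and 5 of the 208 transposable-element rows in the F578A libraries, against number 46, 34 and 36 in the WT libraries. The F578A library in which transposable elements took the smallest share, 3.97%, had the most Rover RNA. In F578A, whose Rover levels lay close together, ROVER-I_DM thus did not rise with the overall share of transposable elements. In WT it had 150.0, 146 and 168 CPM at shares of 4.66%, 3.31% and 4.01%, with no order against the share.

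The terminal repeat of Rover was sparse everywhere. ROVER-LTR_DM had 11.8, 21.0 and 16.6 CPM in F578A, against 5.72, 2.29 and 6.39 CPM in WT. These groups did not overlap either, but the levels rest on 37 to 65 counts per library in F578A and 7 to 16 in WT. The log2 fold change was 1.79 (SE 0.486), and the row did not pass edgeR's quasi-likelihood test after Benjamini-Hochberg adjustment over all repeats.

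DM297 was abundant in the F578A experiment but varied strongly there between libraries of the same group. DM297_I-int had 739, 434 and 274 CPM in F578A, against 483, 151 and 283 CPM in WT. The groups overlapped, with an SD on the log2 scale of 0.716 in F578A and 0.838 in WT, and the log2 fold change was 0.66 (SE 0.468). Its order within each group was that of the transposable-element share, which was 5.92%, 5.0% and 3.97% in the same F578A libraries and 4.66%, 3.31% and 4.01% in the WT libraries. This order was not particular to DM297. QUASIMODO2-I_DM had it in both groups, as had QUASIMODO_I-int and QUASIMODO_LTR, the rows of Quasimodo. ROVER-I_DM, ROVER-LTR_DM and QUASIMODO2-LTR_DM did not. The part of the transposable-element share in these values was not tested.

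Quasimodo2 was low in both groups of the F578A experiment. QUASIMODO2-I_DM had 29.1, 25.5 and 12.4 CPM in F578A, against 22.1, 15.4 and 18.8 CPM in WT (log2 ratio 0.26, SE 0.393). QUASIMODO2-LTR_DM had 11.8, 8.08 and 11.5 CPM in F578A, against 7.36, 6.54 and 9.19 CPM in WT (log2 ratio 0.45, SE 0.374). The groups overlapped for both rows.

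**Figure D1:**
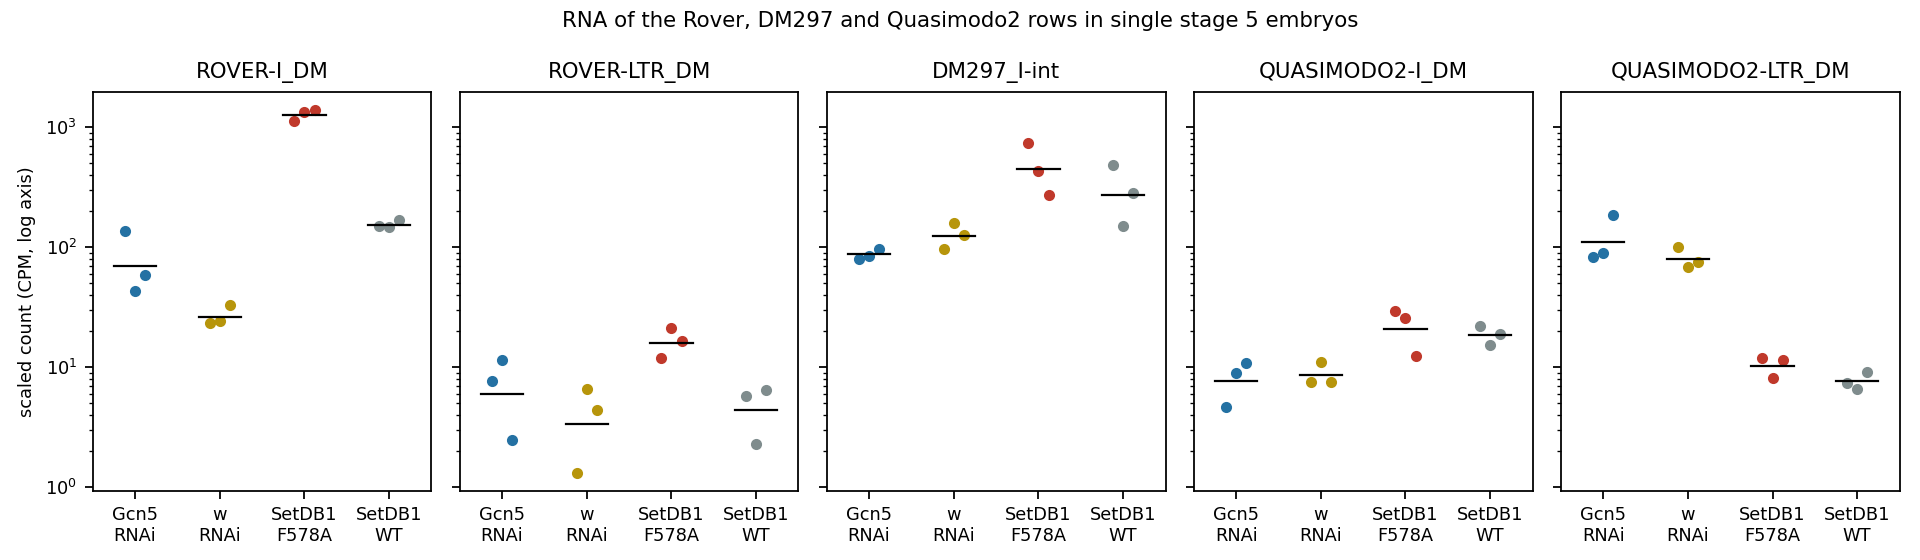
Scaled counts (CPM, log axis) of the 5 rows in the Gcn5 knockdown, w knockdown, F578A and WT groups. Each point is 1 library and each line the geometric mean of 3. ROVER-I_DM lies at 1119 to 1397 CPM in F578A and at 146 to 168 CPM in WT, and QUASIMODO2-LTR_DM is high in both knockdown groups.

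Of the 5 rows, 1 was called higher in F578A, where 0.0418% of the 2395 repeats tested were called. ROVER-I_DM was that call, and no other repeat passed. For 2 of the 5 rows, both of Rover, all F578A libraries lay above all WT libraries. The same held for 5.09% of the repeats tested, which are mostly simple repeats, and for 19 of the 177 transposable elements tested. The rule that picked the rows used this contrast, so these counts describe the choice.

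Relatives of the Gypsy family, like transposable elements in general, had mostly small positive values. Of the 84 tested in F578A against WT, 66 had a positive log2 fold change, with a median of 0.29, and 1 was called, again ROVER-I_DM. With the 5 rows left out, 61 of 79 were positive with a median of 0.28, and 11 had an unadjusted p under 0.05. Of all 177 transposable elements tested, 141 were positive, the median was 0.28 too, and 18 (10.2%) had an unadjusted p under 0.05. All 2395 repeats had a median of 0.02, with 129 (5.39%) at an unadjusted p under 0.05. By fold change among those 177 elements, ROVER-I_DM was number 1, ROVER-LTR_DM number 8, DM297_I-int number 34, QUASIMODO2-LTR_DM number 63 and QUASIMODO2-I_DM number 94.

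The rows of the same names outside the 5 also had values above WT. DM297_LTR, the terminal repeat of DM297, averaged 27.4 ± 10.1 CPM in F578A and 16.7 ± 10.3 CPM in WT (SD, n = 3 each). QUASIMODO_I-int averaged 158 ± 62.9 CPM in F578A and 92.6 ± 33.0 CPM in WT, and QUASIMODO_LTR 133 ± 57.2 CPM in F578A and 68.2 ± 28.8 CPM in WT. The groups overlapped for all 3 rows, and the log2 fold changes were 0.72 (SE 0.496), 0.77 (SE 0.385) and 0.97 (SE 0.421), none of them called.

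In the Gcn5 knockdown, the internal part of Rover was again above its control, but 1 library carried much of the difference. ROVER-I_DM had 137, 42.9 and 58.7 CPM in the Gcn5 knockdown, against 23.3, 24.2 and 32.7 CPM in the w knockdown. All 3 Gcn5 libraries lay above all 3 w libraries, and Gcn5 replicate 1 was 3.19-fold above the lowest of its group. The log2 fold change was 1.50 (SE 0.464, 2.83-fold), and the row was not called without a block. With same-numbered libraries paired by a replicate block it was 1.39 (SE 0.354, 2.63-fold), and the row was called.

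That call rested on replicate 1. Without Gcn5 replicate 1 the unblocked log2 fold change was 0.95. In the blocked fit without replicate 1 of both knockdowns it was 0.84 and the row was no longer called, whereas without replicate 2 or 3 it was 1.68 or 1.69 and the row was called.

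The remaining rows overlapped or nearly met between the knockdowns. DM297_I-int had 80.5, 85.2 and 96.4 CPM in the Gcn5 knockdown, against 96.4, 158 and 127 CPM in the w knockdown (log2 fold change -0.57, SE 0.348), so that the highest Gcn5 library equalled the lowest w library to 3 digits, and on the scaling of the knockdown libraries alone the groups overlapped. ROVER-LTR_DM had 7.66, 11.5 and 2.45 CPM in the Gcn5 knockdown, against 1.32, 6.55 and 4.38 CPM in the w knockdown (log2 fold change 0.77, SE 0.800). Both terminal and internal Rover rows thus had positive values, the terminal one with an SE as large as its change.

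Reads of Quasimodo2 in the knockdown groups fell mostly on its terminal repeat. QUASIMODO2-LTR_DM had 83.0, 88.9 and 184 CPM in the Gcn5 knockdown, against 100.4, 68.5 and 75.7 CPM in the w knockdown (log2 fold change 0.56, SE 0.395). QUASIMODO2-I_DM had 4.68, 8.89 and 10.8 CPM in the Gcn5 knockdown, against 7.49, 11.1 and 7.57 CPM in the w knockdown (log2 fold change -0.10, SE 0.636). The groups overlapped for both rows, and the terminal repeat stood far above the internal part in all 6 libraries.

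Over the 5 rows edgeR called 0 in the Gcn5 knockdown, where 0.0934% of 2142 repeats tested were called. DESeq2 also called 0. In edgeR 1 row, ROVER-I_DM, had an unadjusted p under 0.05, as had 5.56% of the repeats and 26 of the 166 transposable elements tested. With the replicate block 1 of the 5 was called, where 3.41% of the repeats tested were. For 1 of 5 rows all Gcn5 libraries lay above all w libraries, as for 5.28% of the repeats and 17 of the 166 transposable elements tested. Of 76 Gypsy relatives tested, 43 had a positive log2 fold change with a median of 0.15, and 1 was called, the Gypsy element DM412, which was lower. Of the 166 transposable elements 88 were positive, with a median of 0.04. All repeats had a median of 0.01.

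Among the 166 transposable elements tested between the knockdowns, ROVER-I_DM was number 4 by fold change, ROVER-LTR_DM number 22, QUASIMODO2-LTR_DM number 33, QUASIMODO2-I_DM number 97 and DM297_I-int number 134. Outside the 5 rows, QUASIMODO_LTR had 8.52, 24.0 and 26.9 CPM in the Gcn5 knockdown, against 29.5, 40.3 and 49.0 CPM in the w knockdown. Its log2 fold change was -0.996 (SE 0.546) and it was not called. On these levels every Gcn5 library lay below every w library, but on the scaling of the knockdown libraries alone the groups overlapped. DM297_LTR had a log2 fold change of -0.86 (SE 0.745) and QUASIMODO_I-int of 0.27 (SE 0.486).

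**Figure D2:**
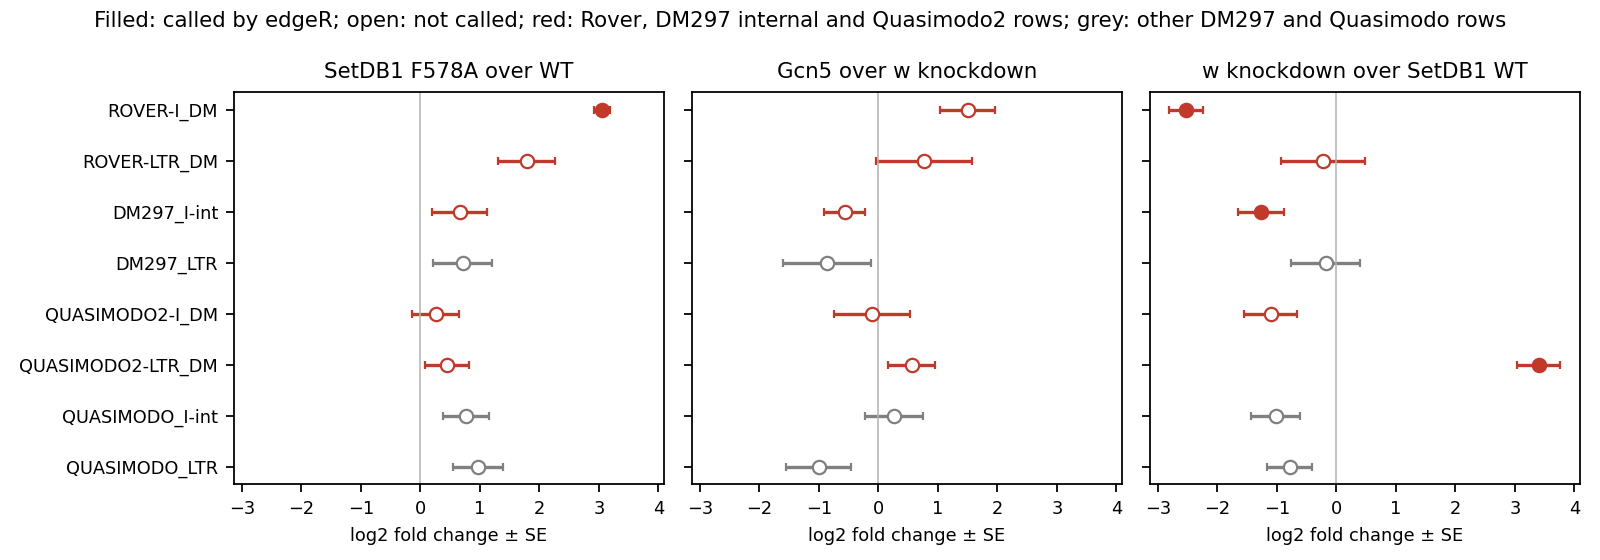
Log2 fold change with its standard error, from edgeR with 3 libraries per group, for the 5 rows and for the other rows named DM297 or Quasimodo. Filled points were called after adjustment over all repeats. ROVER-I_DM is at 3.05 in F578A over WT and at -2.53 in the w knockdown over SetDB1 WT, where QUASIMODO2-LTR_DM is at 3.40.

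The F578A over WT and Gcn5 over w contrasts of the 5 rows were also set against each other in 1 fit over the 12 libraries. The former includes the CyO balancer, from which the substitution cannot be told apart. The difference of contrasts, Gcn5 over w minus F578A over WT, was -1.48 (SE 0.475) for ROVER-I_DM and -1.20 (SE 0.556) for DM297_I-int on the log2 scale. It was -0.96 (SE 0.953) for ROVER-LTR_DM, -0.36 (SE 0.687) for QUASIMODO2-I_DM and 0.10 (SE 0.554) for QUASIMODO2-LTR_DM. edgeR called 0 of the 5 differences, where 0.0407% of 2458 repeats tested were called, and DESeq2 called 0 as well. An unadjusted p under 0.05 in edgeR was reached by 2 of the 5, and by 5.45% of the repeats and 20 of the 181 transposable elements tested. Without Gcn5 replicate 1, ROVER-I_DM had a difference of -2.10 and was called.

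Large contrasts of these rows also lay between the control groups, the w knockdown and SetDB1 WT, which differ both in genotype and in the experiment they belong to, so that these cannot be told apart. ROVER-I_DM averaged 26.7 ± 5.16 CPM in the w knockdown and 155 ± 11.4 CPM in SetDB1 WT (SD, n = 3 each). QUASIMODO2-LTR_DM averaged 81.5 ± 16.8 CPM in the w knockdown and 7.69 ± 1.35 CPM in SetDB1 WT. The groups did not overlap for either row, and they moved in opposite directions, with log2 fold changes of -2.53 (SE 0.280) for ROVER-I_DM and 3.40 (SE 0.358, 10.6-fold) for QUASIMODO2-LTR_DM. Of the 168 transposable elements tested, these were the lowest and the highest values.

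The internal rows of DM297 and Quasimodo2 also had lower means in the w knockdown. DM297_I-int averaged 127 ± 30.8 CPM in the w knockdown and 306 ± 167 CPM in SetDB1 WT (log2 fold change -1.26, SE 0.387). The groups overlapped, and the row was called with all libraries but not without replicate 1 or 3 of the w knockdown, nor without replicate 1 or 3 of SetDB1 WT. QUASIMODO2-I_DM averaged 8.71 ± 2.05 CPM in the w knockdown and 18.7 ± 3.35 CPM in SetDB1 WT (log2 fold change -1.10, SE 0.449). It was not called, although its groups did not overlap. ROVER-LTR_DM, at 4.08 ± 2.62 CPM in the w knockdown and 4.80 ± 2.2 CPM in SetDB1 WT, had a log2 fold change of -0.23 (SE 0.702).

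Calls were common between the controls. Of the 5 rows 3 were called, 1 higher and 2 lower, where 23.5% of 2257 repeats tested were called, 12.4% higher and 11.1% lower. Groups did not overlap for 3 of the 5 rows, 1 higher and 2 lower, as for 43.1% of the repeats tested. Of the 168 transposable elements tested, 5 were called higher and 22 lower, and without overlap 8 were higher and 43 lower. The Gypsy relatives leaned down, with 13 of 77 positive and a median of -0.52, and 3 called higher and 12 lower. Of the transposable elements 35 of 168 were positive, with a median of -0.47, and all repeats of -0.06. Transposable elements as a whole took 2.6%, 3% and 3.17% of the counts in the w knockdown, against 4.66%, 3.31% and 4.01% in SetDB1 WT, and the part of this in the values of single rows was not tested.

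**Figure D3:**
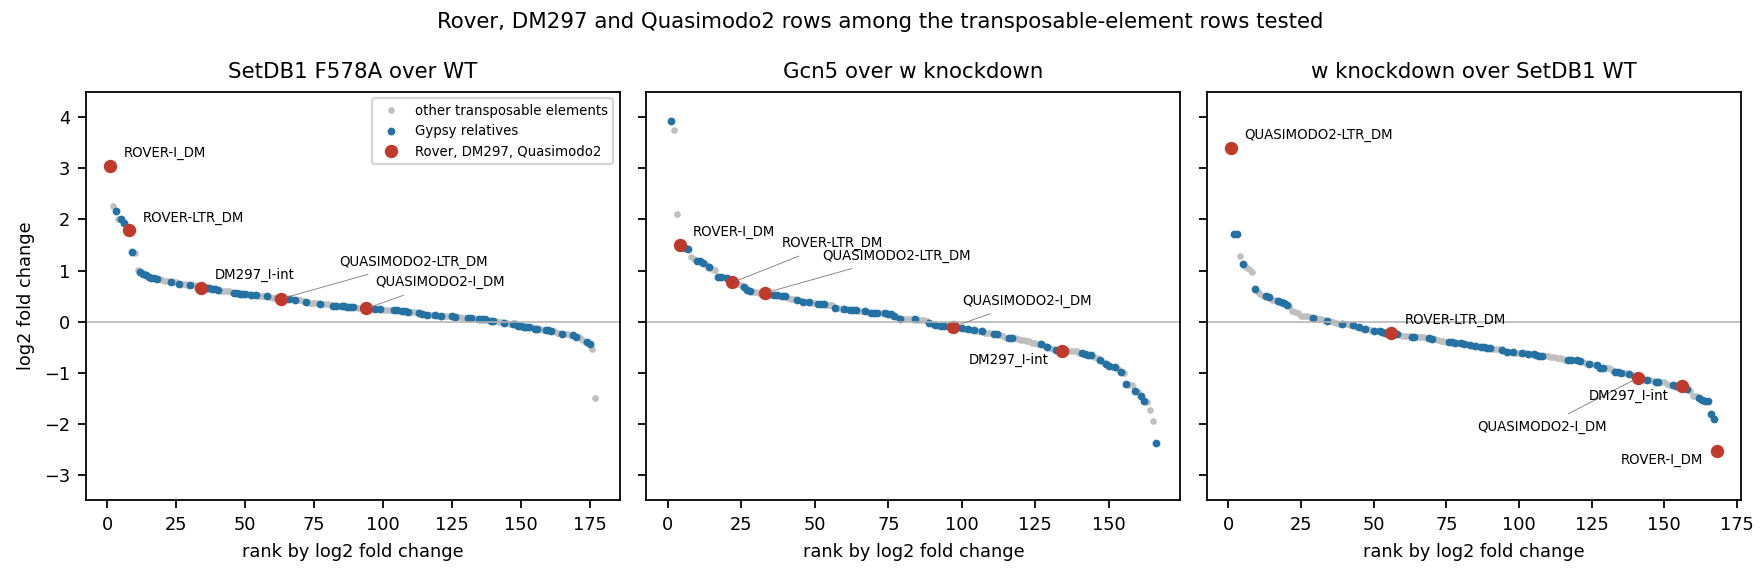
Log2 fold change (y axis) of every transposable-element row tested, ordered from highest to lowest (x axis, rank), in 3 comparisons. Red points are the 5 rows, blue points other relatives of the Gypsy family and grey points other elements. ROVER-I_DM ranks 1 of 177 in F578A over WT and 168 of 168 in the w knockdown over SetDB1 WT, where QUASIMODO2-LTR_DM ranks 1.

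Levels of different rows can be compared only per length, and a name covers all its annotated copies. The summed annotated length was 246187 bases for ROVER-I_DM, 39091 for ROVER-LTR_DM, 436294 for DM297_I-int, 84011 for QUASIMODO2-I_DM and 15150 for QUASIMODO2-LTR_DM. Per kilobase of annotation, ROVER-I_DM had 5.20 ± 0.589 CPM in F578A, above DM297_I-int at 1.11 ± 0.542 CPM (SD, n = 3 each). In SetDB1 WT the order of these rows by mean was the other way, with 0.629 ± 0.0462 CPM per kilobase for ROVER-I_DM and 0.701 ± 0.383 for DM297_I-int, a gap well inside the spread. The lowest densities in F578A were those of ROVER-LTR_DM at 0.421 ± 0.117 and QUASIMODO2-I_DM at 0.266 ± 0.105 CPM per kilobase.

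In the knockdown groups, by contrast, the terminal repeat of Quasimodo2 had the highest density of the 5 rows. QUASIMODO2-LTR_DM had 7.83 ± 3.74 CPM per kilobase in the Gcn5 knockdown and 5.38 ± 1.11 in the w knockdown. In the Gcn5 knockdown ROVER-I_DM had 0.555, 0.174 and 0.239 CPM per kilobase and DM297_I-int 0.184, 0.195 and 0.221. The mean of ROVER-I_DM, 0.323 ± 0.204, rested on replicate 1, without which it was 0.206, against 0.208 for DM297_I-int. In the w knockdown the next row was DM297_I-int, at 0.292 ± 0.0706. ROVER-I_DM was at 0.109 ± 0.0210 CPM per kilobase in the w knockdown, next to ROVER-LTR_DM at 0.104 ± 0.0671 and QUASIMODO2-I_DM at 0.104 ± 0.0244, with no gap beyond the spread among these 3.

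Internal and terminal rows of the same element showed how the make-up of its reads differed between groups. Quasimodo2 had 2.46, 3.16 and 1.08 internal reads per LTR read in F578A, against 3.0, 2.35 and 2.04 in WT. In the Gcn5 knockdown it had 0.0564, 0.10 and 0.0585 internal reads per LTR read, against 0.0746, 0.162 and 0.10 in the w knockdown. LTR reads thus outnumbered internal reads by 10-fold to 17.7-fold in the Gcn5 knockdown and by 6.18-fold to 13.4-fold in the w knockdown, while in all 6 libraries of the F578A experiment internal reads were the more frequent.

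Between the w knockdown and SetDB1 WT, the log2 ratio of internal to LTR reads of Quasimodo2 differed by -4.51, or 22.9-fold, with no overlap between the groups. It differed by -0.62 between the Gcn5 and w knockdowns and by -0.26 between F578A and WT, with overlap in both cases. Without F578A replicate 3 the difference between F578A and WT turned to 0.20. Among 31 elements with both rows at a mean of at least 10 counts, 1 count was added to each row. The difference between the controls was then lowest for Quasimodo2 at -4.41 and next lowest for Invader3 at -2.69, with a median of -0.56. Rover was not among the 31, since its LTR had a mean below 10 counts in the w knockdown. The choice of the rows compared internal with terminal rows, so the rank of Quasimodo2 describes the choice. Per base of annotation, the LTR of Quasimodo2 had 80.2 times the reads of the internal part in the Gcn5 knockdown and 52.1 times in the w knockdown, against 2.73 times in F578A and 2.28 times in WT (geometric means).

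Quasimodo is counted under a name of its own. Between the w knockdown and SetDB1 WT its log2 ratio differed by -0.33, the same sign as for Quasimodo2, with overlap of the groups. It had 4.45, 2.07 and 2.96 internal reads per LTR read in the Gcn5 knockdown, against 0.806, 1.39 and 1.16 in the w knockdown. The difference of 1.46 on the log2 scale between the knockdowns was opposite in sign to that of Quasimodo2, without overlap of the groups. In the F578A experiment its ratio was 1.17 to 1.27 in F578A and 1.22 to 1.63 in WT.

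Rover reads came mostly from the internal part, which has 6.30 times the annotated length of the LTR. Per base of annotation, the LTR of Rover had 0.0791 times the reads of the internal part in F578A and 0.178 times in WT. It had 0.539 times in the Gcn5 knockdown and 0.801 times in the w knockdown (geometric means). In replicate 2 of each knockdown the LTR was the denser, at 1.69 times in Gcn5 and 1.71 times in w. There were 94.4, 63.2 and 84.4 internal reads per LTR read in F578A, against 26.2, 64.0 and 26.3 in WT, so that 1 WT library reached the F578A range. The log2 ratio differed by 1.17, or 2.25-fold. In the Gcn5 knockdown there were 17.8, 3.73 and 24.0 internal reads per LTR read, against 17.7, 3.69 and 7.45 in the w knockdown. These groups overlapped, and 3 to 22 LTR counts per library stood behind them. Between the w knockdown and SetDB1 WT the log2 ratio differed by -2.17, or 4.49-fold lower in the w knockdown, without overlap of the groups and with 3 to 13 LTR counts per library in the w knockdown and 7 to 16 in SetDB1 WT. With 1 count added to each row, 41 element pairs were compared between F578A and WT. Rover had the highest difference in log2 ratio at 1.27, against a median of -0.09. This rank, too, describes the choice of the rows, which compared internal with terminal rows.

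The internal reads per LTR read of DM297 had geometric means of 17.1 in F578A, 18.4 in WT, 13.6 in the Gcn5 knockdown and 9.43 in the w knockdown. Differences between groups in the log2 ratio were -0.11 for F578A against WT, 0.53 for the Gcn5 against the w knockdown and -0.96 for the w knockdown against SetDB1 WT. The groups overlapped in all 3 comparisons.

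**Figure D4:**
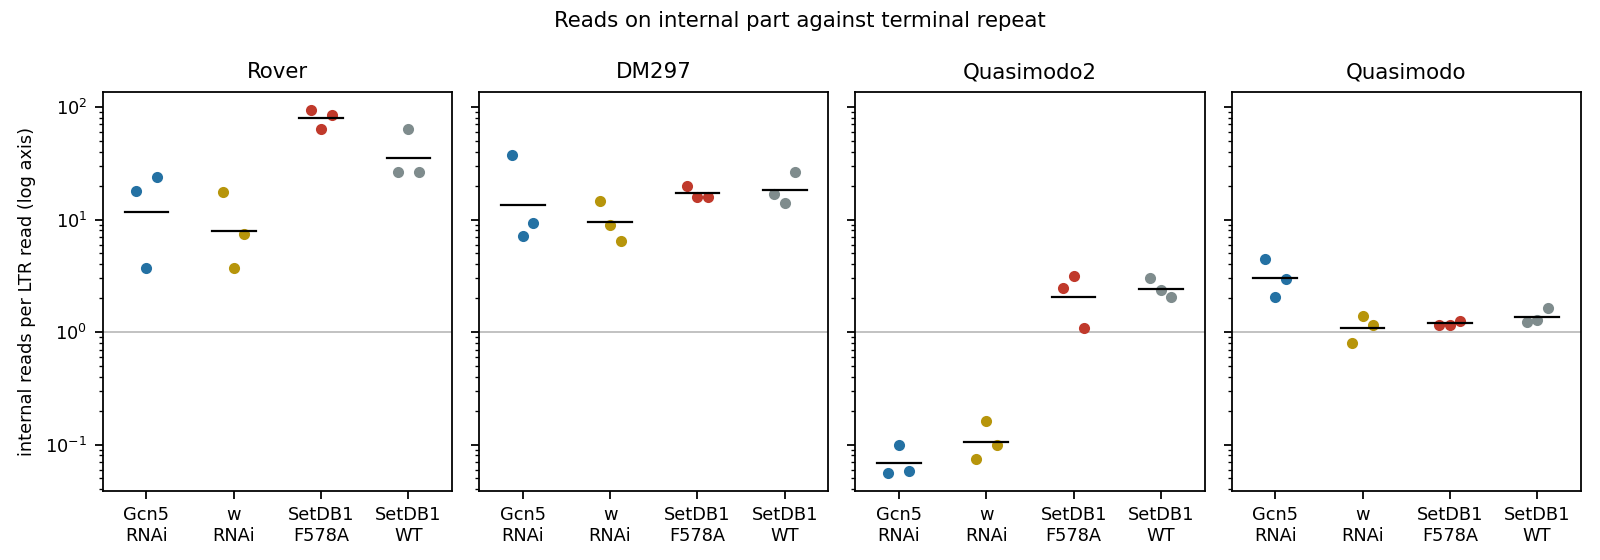
Internal reads per LTR read (log axis) of Rover, DM297, Quasimodo2 and Quasimodo in the Gcn5 knockdown, w knockdown, F578A and WT groups. Each point is 1 library, each line the geometric mean of 3, and the grey line marks equal numbers. Quasimodo2 lies at 0.0564 to 0.162 in the knockdown groups and at 1.08 to 3.16 in F578A and WT.

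As a share of all transposable-element counts, the 5 rows together made up 3.52%, 3.73% and 4.33% in F578A, against 1.45%, 0.928% and 1.19% in WT. They made up 1.16%, 0.846% and 1.22% in the Gcn5 knockdown, against 0.859%, 0.923% and 0.836% in the w knockdown. Rover accounted for most of this sum in F578A, and DM297 was the largest of the 5 in WT.

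**Figure D5:**
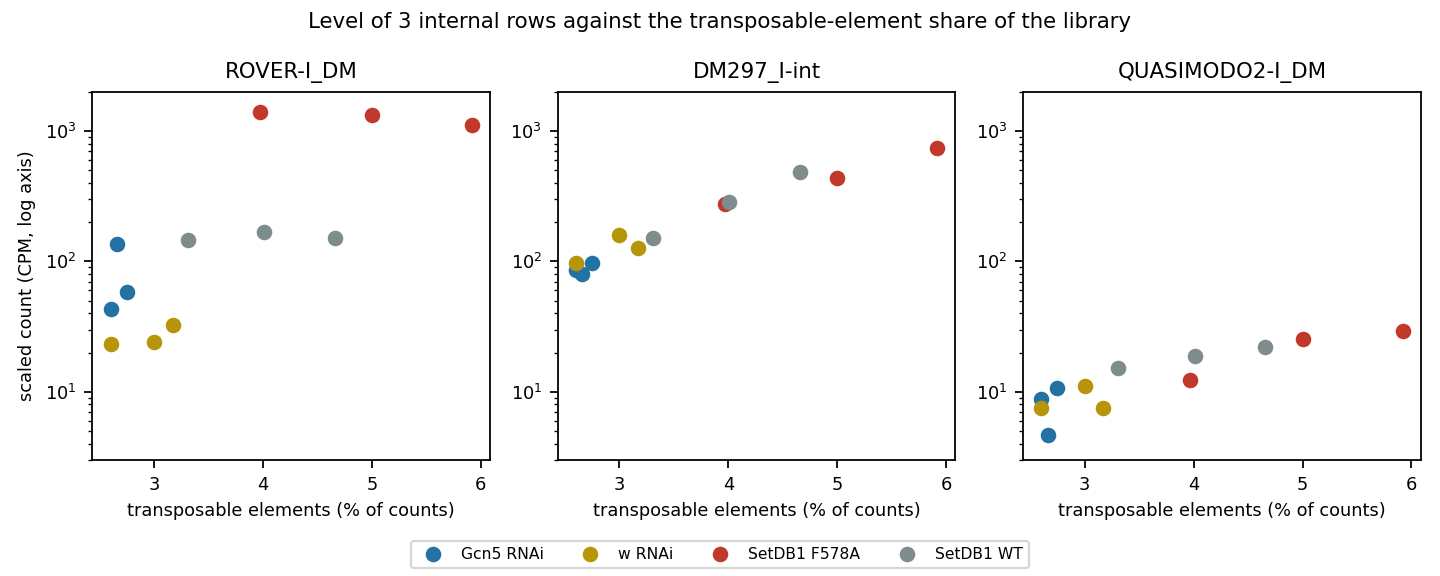
Scaled count (CPM, log axis) of 3 internal rows against the share of transposable elements in all counts of the library (percent). Each point is 1 library. The libraries with the lowest shares hold the lowest DM297_I-int levels, down to 80.5 CPM, and the library with the highest share holds 739 CPM, while ROVER-I_DM stays at 1119 to 1397 CPM in F578A over shares of 3.97% to 5.92%.

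The rows whose pattern over the 12 libraries was most like that of ROVER-I_DM, by the root mean square difference of centred log2(CPM + 1), were ZAM_I-int at 1.22, ZAM_LTR at 1.23 and FROGGER_I-int at 1.26. The median of the 141 rows compared, those with a mean of at least 10 CPM, was 1.87, and ROVER-LTR_DM was at 1.56. ZAM, a Gypsy element with an envelope gene, had 133, 85.3 and 71.7 CPM for ZAM_I-int in F578A, against 31.1, 19.0 and 22.4 CPM in WT. It had 12.3, 12.5 and 16.6 CPM in the Gcn5 knockdown, against 10.1, 22.7 and 17.9 CPM in the w knockdown. ZAM_I-int thus overlapped between the knockdowns, unlike ROVER-I_DM. FROGGER_I-int had 49.9, 40.1 and 30.6 CPM in F578A, against 19.6, 13.1 and 14.8 CPM in WT. It had 5.54, 3.14 and 5.87 CPM in the Gcn5 knockdown, against 6.61, 11.1 and 5.97 CPM in the w knockdown. Its log2 fold change between the knockdowns was -0.72 (SE 0.658), opposite in sign to the 1.50 of ROVER-I_DM.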

How the data were processed

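For 12 RNA libraries the deposited raw counts of each repeat name were used, as made by the authors. The counting tool named is featureCounts 1.6.5, and the builds named are dm6 and BDGP6, per the submitters' processing notes. The summed length of each name, in bases, is a further column that the authors deposited. How multiply mapped reads and strand were treated, and the repeat annotation, are not given in the sources used here. Related elements may share reads. ChIP-seq peak lists (29) were not used, since no annotation placed these elements.

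Comparisons used edgeR 4.0.16 under R 4.3.3 (TMM, filterByExpr, quasi-likelihood test, Benjamini-Hochberg over all repeats, threshold 0.05), after a check on simulated counts. Each fit had its own scaling, and printed CPM share 1 scaling over all libraries. Shares of repeats whose groups do not overlap use the scaling of the comparison. DESeq2 1.42.0 was an alternative. The rows and lists were chosen with earlier results of these data known. Named rows were these 5, all others beginning with ROVER, DM297 or QUASIMODO, and the 3 nearest patterns.

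Same-numbered Gcn5 and w libraries deviated together across repeats (correlations 0.608, 0.259 and 0.459). A fit with these numbers as pairs, the replicate block, is therefore given beside the main fit, which had no block. The labels name no pairs, so the pairing was read from these same data. Replicates differed far beyond counting noise (chi-square per degree of freedom 10 to 99.1).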

Additional observations from a re-analysis of the deposited data

How the results depend on the processing

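ROVER-I_DM was called higher in F578A than in WT in all 13 alternatives, with log2 fold changes of 2.80 to 3.17. It was the 1 call among the 5 rows in each. The row was chosen with this contrast known, and the alternatives refit the same counts. With the replicate block, 1 of the 5 rows, ROVER-I_DM, was called between the knockdowns in place of 0, and 1 also when same-numbered pair 2 or 3 was left out, an alternative chosen after seeing the data. Without single libraries 0 to 1 of the 5 were called for the difference of contrasts and 2 to 3 between the controls. The cause was not tested.

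Signs turned for uncalled rows and, without F578A replicate 3, for the internal to LTR ratio of Quasimodo2 in F578A against WT (-0.58 to 0.20 without single libraries). QUASIMODO2-I_DM turned to -0.0727 in F578A against WT, and to 0.0144 for the difference of contrasts, when transposable elements were fitted alone. Between the controls, ROVER-LTR_DM turned to 0.18 and DM297_LTR to 0.27 in that fit. QUASIMODO2-LTR_DM turned to -0.0880 for the difference of contrasts under total-count scaling. That scaling moved the median of all repeats to -0.19 (0.11 for F578A against WT). Without single libraries, ranges between the knockdowns were -0.39 to 0.20 for QUASIMODO2-I_DM and -0.11 to 0.52 for QUASIMODO_I-int. Between the controls they were -0.71 to 0.28 for ROVER-LTR_DM and -0.43 to 0.45 for DM297_LTR. For the difference of contrasts the range was -0.40 to 0.34 for QUASIMODO2-LTR_DM. With the replicate block and without replicate 1 of both knockdowns, QUASIMODO2-I_DM was at 0.10.

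Between the controls DM297_I-int lost its call when transposable elements were fitted alone (-0.76) and with the replicate block (-1.13). Between the controls that block joined libraries of different experiments by number alone, so its fit there has no meaning as a pairing. F578A and WT numbers were not treated as pairs (correlations 0.692, -0.114 and -0.0443), and the block called 7 repeats there in place of 1. Over all repeats, edgeR called 1 for F578A against WT, DESeq2 16, edgeR without a filter 30, on transposable elements alone 10 and over all groups 3. Between the knockdowns these were 2, 16, 15, 7 and 8, with 73 under the block and 1 to 13 without single libraries. Between the controls 530 fell to 311 with the block, 14 on transposable elements alone and 271 without WT replicate 3. For the difference of contrasts 1 became 5 with DESeq2, 8 without a filter, 2 on transposable elements alone and 4 with the block. The planned share of element copies with a ChIP-seq peak was not run, since no copy annotation was used here. Low counts limit the LTR rows.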
